A study of Oryctolagus cuniculus with 16 samples.

Results

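Ion channel genes with a voltage-gated or related pore or subunit were followed in rabbit vein tissue after vein graft surgery. The members are the named genes whose symbol begins with KCN (potassium channels), SCN (sodium channels), CACN (calcium channels), CLCN (chloride channels and transporters) or HCN (pacemaker channels), or with TRP followed by A, C, M, P or V and a number (transient receptor potential channels), except KCNJ8, CACNB1 and CACNA1C, which were left out and are given once below. The rule itself uses symbols and no expression value, but it was set with earlier results of these data known. To be kept, a gene needed a probe whose signal the scanner software marked as well above background throughout the arrays of 1 or more groups. Of 56 such genes with a named probe, 47 passed, among 19357 genes in the model. Among the 9 that did not pass were CACNA1S, CACNG7, CLCN6, KCNA2, KCNJ12, KCNK5 and TRPV6. Of the 47, 39 met this requirement in all 3 groups, 4 in 2 groups and 4 in only 1 group, so that their number depends in part on the group in which a gene was bright.

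The tissue came from male rabbits. Grafts taken on day 1 after surgery were measured on 6 arrays, grafts taken on day 7 on 6 arrays, and vein of the sham surgery group, the control, on 4 arrays. The vein, the age of the animals and the number of animals behind the arrays are not given in the sources used here. Day 1 arrays 1, 3 and 5 differed from each other by less than the spread between spots on the same array, as did arrays 2, 4 and 6, and day 7 showed the same arrangement. Each such set of 3 was averaged and counted as 1 sample, so that n = 2 on day 1, n = 2 on day 7 and n = 4 in the sham surgery group. The variance between the samples of a graft group was still only 0.978 to 1.66 times the spot variance on day 1 and 0.94 to 1.08 times on day 7. The p-values may therefore measure technical spread, and nothing in the labels says that the samples came from separate animals.

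The sham samples fell into pairs over all genes. Samples 1 and 2 differed by 2.31 times the spot variance and samples 3 and 4 by 1.05 times, while samples of different pairs differed by 22.0 to 23.7 times. The 4 sham arrays were scanned together and apart from all graft arrays, so that scan and surgery cannot be told apart in a comparison with sham. The other 3 scans each held 2 day 1 arrays and 2 day 7 arrays. From 32973 to 36319 probes exceeded background clearly on an array, and the few arrays limit precision.

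In the wall of a vein, smooth muscle cells set their membrane potential mainly through potassium channels. Voltage-gated potassium (Kv) channels, large-conductance calcium-activated potassium (BK) channels and inward rectifiers draw the potential to negative values, which keeps voltage-gated calcium channels closed and the muscle relaxed. Beta and minK-related subunits tune the gating and the surface level of the pores. Nerve fibres, endothelium and blood-derived cells carry their own channels, and the RNA of a whole vein mixes all of these. In such RNA, fewer cells of a type and less RNA per cell cannot be told apart.

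Values are quantile-normalized log2 signals of the brightest probe of a gene. Differences are log2 fold changes with their standard error from limma, with Benjamini-Hochberg adjusted p-values over all genes in the model. A gene was called higher or lower when the adjusted p-value was below 0.05 and the absolute log2 fold change was at least 1. A signal is not compared between genes.

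On day 1, several potassium channel genes of smooth muscle and their subunits were lower than in sham tissue (KCNAB1, KCNA5, KCNMB1 and KCNMA1 among them), while the genes that were higher included TRPV5, HCN4, CACNA1B and CACNA1E. Of the 47 genes, 13 were up-regulated and 13 were down-regulated on day 1 against sham (27.7% each). Among all genes, 28.9% were up-regulated and 22% were down-regulated, so that the shares of the ion channel genes were near the background. These counts include KCNA1 and SCNN1G, which passed the filter only through a group in which they were called higher. On day 7 against sham, 4 were up-regulated and 13 were down-regulated, which is 8.51% and 27.7%, beside 17.6% and 13.6% of all genes. On day 7 against day 1, 4 were up-regulated and 17 were down-regulated, which is 8.51% and 36.2%, beside 19.3% and 22.3% of all genes. The median log2 fold change of the 47 genes was 0.57 on day 1 and -0.26 on day 7 against sham, and -0.55 on day 7 against day 1. The medians of all genes were 0.26, 0.05 and -0.16. No test of the group of genes was made.

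**Figure D1:**
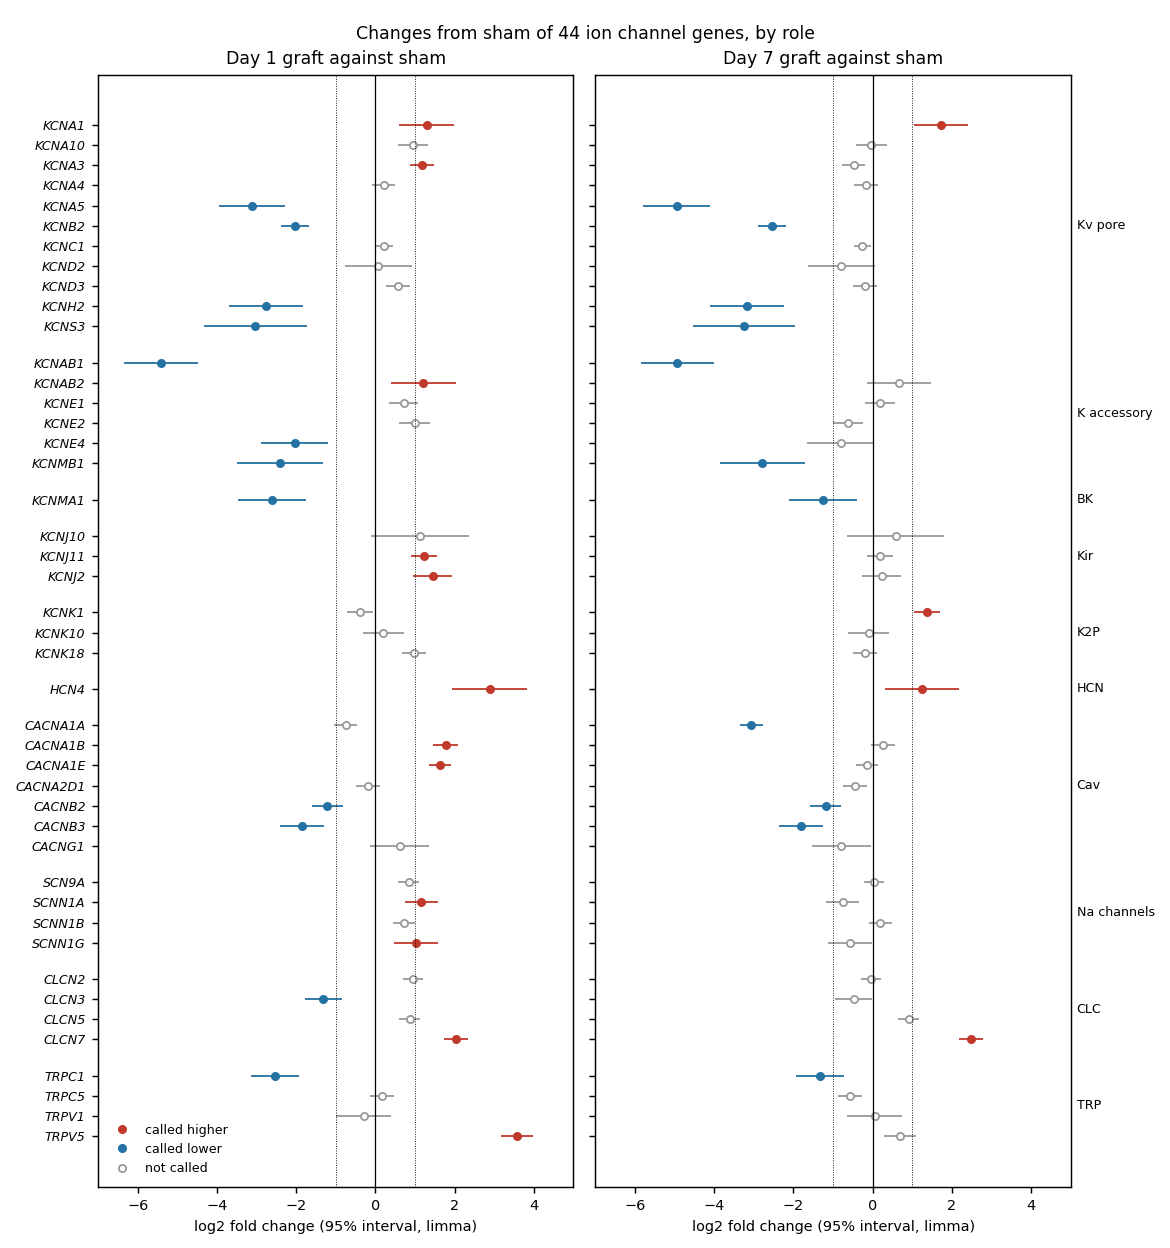
Log2 fold change against sham (horizontal axis, 95% interval from limma) of 44 of the 47 ion channel genes (rows, grouped by role) on day 1 (left, n = 2 against 4 samples) and day 7 (right, n = 2 against 4 samples); filled points were called (KCNA1 was not well above background in sham, nor SCNN1G on day 7), open points were not, and dotted lines mark -1 and 1. On day 1 there are 12 red and 12 blue points, and on day 7 there are 4 red and 11 blue points.

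Many of these calls changed with the background setting. The alternative used normexp correction of median spot signals with an offset of 50, in place of the processed signal of the scanner software. Signal measure, correction and offset changed together, and their separate parts were not tested. With normexp, 3 genes were up-regulated and 10 were down-regulated on day 1, and 1 and 9 on day 7. On day 7 against day 1 they were 0 and 3. Among all genes, 3032 and 2441 of 19354 were then called on day 1, and 1896 and 1460 of 19322 on day 7. Between the times, 1862 and 2008 of 19324 were called. The genes called both ways included CLCN7, HCN4 and TRPV5 (higher on day 1), KCNAB1, KCNA5, KCNB2, KCNH2, KCNS3, KCNMA1, KCNMB1, CACNB2, CACNB3 and TRPC1 (lower on day 1), CLCN7 (higher on day 7), KCNAB1, KCNA5, KCNB2, KCNH2, KCNS3, KCNMB1, CACNA1A and CACNB3 (lower on day 7), and CACNA1A, SCNN1A and TRPV5 (lower on day 7 than on day 1). The other 38 of the 64 calls were lost. Scaling to the 75th percentile in place of quantile normalization moved the median of all genes to 0.68, -0.11 and -0.63 in the 3 comparisons. The counts of up- and down-regulated ion channel genes were then 23 and 12 on day 1, 3 and 19 on day 7, and 1 and 29 on day 7 against day 1. Among all genes with this scaling, 7788 and 3328 of 19354 were called on day 1, and 3275 and 3408 of 19322 on day 7. On day 7 against day 1, 2655 and 7652 of 19324 were called. Relative to all genes, the median of the 47 genes was higher by 0.26 on day 1 with this scaling and by 0.31 with quantile normalization. On day 7 it was lower by 0.42 and by 0.31, and on day 7 against day 1 lower by 0.79 and by 0.38.

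The Kv pore subunits were the largest role group, with 11 genes. On day 1, 4 of them were down-regulated and 2 were up-regulated, and on day 7, 4 were down-regulated and 1 was up-regulated. The same 4 genes, KCNA5, KCNB2, KCNH2 and KCNS3, were lower at both times. KCNA5 encodes Kv1.5, a delayed rectifier of vascular smooth muscle. Its log2 signal was 8.995, 8.95, 9.52 and 9.73 in sham samples 1 to 4, 6.76 and 5.60 on day 1, and 4.38 and 4.32 on day 7. Thus each day 7 sample was below each day 1 sample, and each day 1 sample was below the sham samples. The log2 fold change was -3.12 ± 0.36 on day 1 (adjusted p = 0.000149) and -4.95 ± 0.36 on day 7 (30.9-fold lower, adjusted p = 2.75e-05). Day 7 against day 1 differed by -1.83 ± 0.41 (adjusted p = 0.00637), and by -0.58 with normexp correction, where it was not called.

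KCNS3 encodes Kv9.3, a silent subunit that joins Kv2 pores. The signal on the log2 scale was 8.42, 8.41, 8.36 and 8.38 in the sham samples, 4.20 and 6.54 on day 1, and 5.04 and 5.25 on day 7. The sham samples lay within a narrow range, and the day 1 samples were far apart. It differed from sham by -3.03 ± 0.55 on day 1 (adjusted p = 0.00171) and -3.25 ± 0.55 on day 7 (adjusted p = 0.00187). KCNB2 encodes Kv2.2, a delayed rectifier pore of the Kv2 family. Log2 signals were 8.61, 8.49, 8.90 and 8.89 in the sham samples, 6.61 and 6.79 on day 1, and 6.12 and 6.25 on day 7. In limma the log2 fold change was -2.02 ± 0.15 on day 1 (adjusted p = 1.57e-05) and -2.54 ± 0.15 on day 7 (adjusted p = 1.11e-05). For both genes the graft samples did not overlap the sham samples, and all 5 probes of each gene were called lower at both times.

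KCNH2 encodes the ERG1 channel, known for cardiac repolarization and also present in smooth muscle. Its log2 signal was 12.98, 12.80, 11.70 and 11.76 in the sham samples, 9.55 and 9.55 on day 1, and 8.96 and 9.31 on day 7. Sham samples 1 and 2 were above samples 3 and 4, and all 4 were above the graft samples. The change from sham was -2.76 ± 0.40 on day 1 (6.76-fold lower, adjusted p = 0.00052) and -3.17 ± 0.40 on day 7 (9.02-fold lower, adjusted p = 0.00043). Its 5 probes gave -3.17 to -2.76 on day 1 and -3.53 to -3.17 on day 7.

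KCNA1 encodes Kv1.1, best known from nerve fibres, and KCNA3 encodes Kv1.3, known from lymphocytes, macrophages and proliferating smooth muscle. KCNA1 was well above background on 0 of 4 sham arrays, 3 of 6 day 1 arrays and 6 of 6 day 7 arrays. It passed the filter only through day 7, so that its difference from sham follows in part from the filter and its values are given as a description. Against the lowest signal that was well above background, it was at least 2.71-fold higher on day 7 than in sham. No such bound is given for day 1, because no array of day 1 sample 1 was well above background. Its day 1 call was lost without day 1 sample 2, at a log2 fold change of 0.76, and both calls were lost with normexp correction, at 0.14 and 0.20. KCNA3 was higher on day 1 by 1.18 ± 0.13 (adjusted p = 0.000109), with a 95% interval on day 7 of -0.78 to -0.18 against sham. The day 1 value was 0.52 with normexp correction and was not called. The other 5 pore genes, KCNA4, KCNA10, KCNC1, KCND2 and KCND3, were called in no comparison, and their log2 fold changes against sham lay between -0.79 and 0.95. These values are of the brightest probe, and the 2 probes of KCNA10 disagreed. The second probe was called lower in all 3 comparisons, at -1.70 on day 1, -2.76 on day 7 and -1.05 between the times, and was well above background on 1 of 6 day 7 arrays, while the brightest probe gave 0.95, -0.03 and -0.98.

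Of the 6 accessory potassium channel subunits, 3 were down-regulated and 1 was up-regulated on day 1, and 2 were down-regulated on day 7. KCNAB1, which encodes the Kv beta 1 subunit, had the largest change of all members. The signal on the log2 scale was 13.27, 13.22, 12.12 and 12.04 in the sham samples, 7.30 and 7.19 on day 1, and 7.61 and 7.86 on day 7. Each graft sample was thus more than 4 log2 units below the lowest sham sample. The log2 fold change was -5.42 ± 0.39 on day 1 (42.7-fold lower, adjusted p = 1.42e-05) and -4.93 ± 0.39 on day 7 (30.5-fold lower, adjusted p = 4.59e-05). Its 5 probes gave -5.43 to -5.24 on day 1 and -5.06 to -4.86 on day 7. Against sham samples 1 and 2 alone the day 1 value was -6.00, and against samples 3 and 4 alone it was -4.84.

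KCNMB1 and KCNMA1 encode the beta 1 subunit and the pore of the BK channel of smooth muscle. The log2 signal of KCNMB1 was 12.54, 12.45, 11.14 and 11.09 in the sham samples, 9.33 and 9.47 on day 1, and 9.02 and 9.02 on day 7. It differed from sham by -2.40 ± 0.46 on day 1 (adjusted p = 0.00222) and -2.78 ± 0.46 on day 7 (adjusted p = 0.00165). The log2 signal of KCNMA1 was 8.56, 8.48, 7.47 and 7.41 in the sham samples, 5.37 and 5.38 on day 1, and 6.70 and 6.74 on day 7. Thus the signal of the pore gene was lowest on day 1 and lay between day 1 and sham on day 7, while that of the subunit gene was low at both times. KCNMA1 was lower on day 1 by -2.60 ± 0.36 (adjusted p = 0.000434) and on day 7 by -1.26 ± 0.36 (adjusted p = 0.0206), and day 7 was above day 1 by 1.34 ± 0.42 (adjusted p = 0.0259).

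The day 7 values of KCNMA1 were less stable than its day 1 value. Against sham samples 3 and 4 alone the day 7 difference was -0.72 and was not called, and it was -0.76 with normexp correction. The call was also lost without day 7 sample 1, at -1.24, and without day 7 sample 2, at -1.28. The difference of day 7 from day 1 lost its call when any 1 graft sample was left out, at 1.32 to 1.36, and under 75th percentile scaling, at 0.47. Its second probe gave 0.21 for that difference and was not called, while both probes were called lower at both times against sham.

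KCNE4, a minK-related subunit that inhibits Kv1 channels, had log2 signals of 7.01, 6.81, 5.91 and 5.81 in the sham samples, 4.42 and 4.26 on day 1, and 5.58 and 5.59 on day 7. It was lower on day 1 by -2.04 ± 0.36 (adjusted p = 0.00143), and day 7 was above day 1 by 1.24 ± 0.41 (adjusted p = 0.0329). With normexp correction the day 1 value was -0.62 and was not called. The call between the times was lost when any 1 graft sample was left out, at 1.16 to 1.32, and the value fell to 0.20 under 75th percentile scaling. KCNE2, another minK-related subunit, was lower on day 7 than on day 1 by -1.62 ± 0.19 (adjusted p = 0.000245) on all of its 3 probes, and was well above background on 4 of 6 day 7 arrays. KCNAB2, the Kv beta 2 subunit, was higher on day 1 by 1.21 ± 0.35 (adjusted p = 0.0152), a call that was lost without sham sample 1 (0.98), without day 1 sample 1 (1.18) and without day 1 sample 2 (1.24). KCNE1 was called in no comparison, with 0.71 ± 0.16 on day 1.

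The inward rectifiers KCNJ2 (Kir2.1, which sets resting potential) and KCNJ11 (Kir6.2, a pore of ATP-sensitive channels) were up-regulated on day 1, by 1.45 ± 0.21 (adjusted p = 0.000499) and 1.22 ± 0.14 (adjusted p = 0.000139). Both were lower on day 7 than on day 1, by -1.22 ± 0.24 (adjusted p = 0.00346) and -1.03 ± 0.16 (adjusted p = 0.00105). With normexp correction their day 1 values were 0.35 and 0.53 and were not called. The call of KCNJ2 on day 7 against day 1 was lost without day 7 sample 2 (-0.97), and that of KCNJ11 without day 7 sample 1 (-0.89) and without day 1 sample 1 (-0.99). The second probe of KCNJ2 was well above background on the day 1 arrays and on no sham or day 7 array, so that it has no measured difference between sham and day 7. The third gene, KCNJ10, had sham signals from 4.04 to 5.89 and was called in no comparison.

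Among the 3 two-pore-domain potassium channel genes, which carry background potassium current, KCNK1 was up-regulated on day 7, by 1.36 ± 0.14 against sham (adjusted p = 0.000159) and 1.75 ± 0.16 against day 1 (adjusted p = 8.72e-05). All of its 5 probes were called higher in both comparisons. It was well above background on 2 of 6 day 1 arrays. The differences were 0.31 and 0.38 with normexp correction, where neither was called, and the difference from day 1 was 0.64 under 75th percentile scaling. KCNK18 was lower on day 7 than on day 1 by -1.17 ± 0.15 (adjusted p = 0.000417), and KCNK10 was called in no comparison.

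HCN4 encodes a pacemaker channel of the sinus node, which carries a cation current that opens on hyperpolarization. HCN4 had log2 signals of 4.82, 5.78, 4.18 and 5.34 in the sham samples, 7.83 and 8.004 on day 1, and 6.21 and 6.34 on day 7. The sham samples were scattered but stayed below the graft samples. Both probes of HCN4 were called higher on day 1, the brightest by more. The second probe gave 0.24 on day 7 against sham and -0.87 on day 7 against day 1, neither of which was called. That probe was well above background on 3 of 4 sham arrays and 1 of 6 day 7 arrays. On the brightest probe, the change from sham was 2.89 ± 0.40 on day 1 (adjusted p = 0.000418) and 1.24 ± 0.40 on day 7 (adjusted p = 0.0316). The day 7 call was lost under 12 of 22 alternatives, with values from 0.43 to 1.51, among them the omission of any 1 graft sample, of sham sample 1 (1.17) or of sham sample 3 (0.96). Day 7 was below day 1 by -1.64 ± 0.46 (adjusted p = 0.0169), and that call was also lost when any 1 graft sample was left out, at -1.73 to -1.56.

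Of the 7 voltage-gated calcium channel genes, 2 were up-regulated and 2 were down-regulated on day 1, and 3 were down-regulated on day 7. CACNA1A encodes the P/Q-type pore, best known from nerve endings. Log2 signals were 8.65, 8.50, 8.78 and 8.74 in the sham samples, 7.93 and 7.91 on day 1, and 5.71 and 5.50 on day 7. The samples of each group lay close together and the 3 groups were apart. The log2 fold change was -0.75 ± 0.12 on day 1, which was not called, and -3.06 ± 0.12 on day 7 (8.34-fold lower, adjusted p = 1.86e-06). All 5 probes were called lower on day 7, and their values ran from -4.08 to -3.06.

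CACNB2 and CACNB3 encode beta subunits that bring calcium channel pores to the cell surface. CACNB3 was lower by -1.86 ± 0.23 on day 1 (adjusted p = 0.000248) and by -1.81 ± 0.23 on day 7 (adjusted p = 0.000489). Its second probe gave 0.22 and -0.43 and was not called. CACNB2 was lower by -1.21 ± 0.16 on day 1 (adjusted p = 0.000382) and by -1.19 ± 0.16 on day 7 (adjusted p = 0.000721), and all of its 6 probes were called lower at both times. On day 1, 2 of the 6 probes were not well above background on any array and 1 more was on 4 of 6 arrays, and the others ran from -3.67 to -1.21. Day 7 was above day 1 by 2.64 on 1 probe measured on every array, while the brightest probe differed by 0.02 ± 0.19. Against sham samples 3 and 4 alone, the brightest probe gave -0.99 on day 1 and -0.97 on day 7 and was not called.

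The N-type and R-type pore genes CACNA1B and CACNA1E were higher on day 1, by 1.77 ± 0.13 (adjusted p = 1.49e-05) and 1.64 ± 0.12 (adjusted p = 1.3e-05). On day 7 they were lower than on day 1, by -1.52 ± 0.15 (adjusted p = 0.000121) and -1.78 ± 0.14 (adjusted p = 3.76e-05). With normexp correction, their day 1 values were 0.80 and 0.50 and were not called, and the second probe of CACNA1E gave 0.05. CACNG1, a gamma subunit of skeletal muscle, was lower on day 7 than on day 1 by -1.40 ± 0.36 (adjusted p = 0.0117). That call was lost without day 1 sample 1 (-1.39) and without day 7 sample 1 (-1.003). CACNA2D1, the alpha 2 delta 1 subunit, was called in no comparison on its brightest probe, and its second probe gave -1.43 on day 1.

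Among the 5 sodium channel genes were 3 subunits of the epithelial sodium channel and SCN9A (a pore of sensory and sympathetic neurons). SCNN1A, the alpha subunit of the epithelial channel, had log2 signals of 7.47, 7.64, 7.11 and 7.08 in the sham samples, 8.50 and 8.47 on day 1, and 6.498 and 6.63 on day 7. The day 1 samples were thus above and the day 7 samples below all sham samples. It differed from sham by 1.16 ± 0.18 on day 1 (adjusted p = 0.000751) and by -0.76 ± 0.18 on day 7, which was not called. Day 7 was below day 1 by -1.92 ± 0.21 (adjusted p = 0.000184). Its 6 probes were all called higher on day 1, and 5 of them were called lower on day 7 than on day 1, while on day 7 against sham they ran from -0.76 to 1.67. The day 1 value was 0.92 against sham samples 1 and 2 alone and 0.80 with normexp correction, neither of which was called.

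SCNN1G, the gamma subunit, was well above background on 3 of 4 sham arrays, 6 of 6 day 1 arrays and 0 of 6 day 7 arrays. It passed the filter only through day 1, so that its day 1 differences follow in part from the filter and are given as a description. It was above sham on day 1 by 1.03 ± 0.23. That call was lost without day 1 sample 1 (0.89), without sham sample 3 (0.86) and against sham samples 1 and 2 alone (0.76). On day 7 it was at least 1.74-fold lower than on day 1. SCNN1B and SCN9A were called in no comparison, with 0.72 ± 0.12 and 0.84 ± 0.11 on day 1, and the second probe of SCN9A gave -0.24.

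Of the 5 CLC genes, CLCN7 was up-regulated at both times. CLCN7 encodes the chloride-proton exchanger of lysosomes and of the osteoclast border. Its log2 signal was 14.64, 14.56, 14.76 and 14.96 in the sham samples, 16.76 and 16.76 on day 1, and 17.23 and 17.21 on day 7. The 3 groups did not overlap. In limma the log2 fold change was 2.03 ± 0.13 on day 1 (4.09-fold, adjusted p = 6.98e-06) and 2.49 ± 0.13 on day 7 (5.62-fold, adjusted p = 6.08e-06). All 5 probes were called higher at both times, and the values over the alternatives ran from 1.90 to 2.18 on day 1 and from 2.36 to 3.31 on day 7.

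CLCN3, an endosomal exchanger, was lower on day 1 by -1.31 ± 0.20 (adjusted p = 0.000624) and gave -0.48 ± 0.20 on day 7, which was not called. With normexp correction the day 1 value of CLCN3 was -0.96 and was not called. CLCN2 was lower on day 7 than on day 1 by -1.002 ± 0.12 (adjusted p = 0.000347), a call lost at -0.97 without day 7 sample 1 and at -0.96 without day 1 sample 2. CLCN5 was called in no comparison, with 0.86 ± 0.11 on day 1 and 0.91 ± 0.11 on day 7.

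TRPC1 and TRPV5 were the members of the transient receptor potential group that were called, of 4. TRPC1 encodes a cation channel of smooth muscle that is linked to calcium entry after store release. The signal on the log2 scale was 9.43, 9.41, 8.68 and 8.65 in the sham samples, 6.53 and 6.49 on day 1, and 7.68 and 7.75 on day 7. As for KCNMA1, the day 7 samples lay between day 1 and sham. The change from sham was -2.54 ± 0.26 on day 1 (adjusted p = 8.4e-05) and -1.33 ± 0.26 on day 7 (adjusted p = 0.00377), and day 7 was above day 1 by 1.21 ± 0.30 (adjusted p = 0.0102). All 4 probes were called in the 3 comparisons in these directions. On day 1, 1 of the 4 was not well above background on any array and another was on 4 of 6 arrays, and the other two gave -4.91 and -2.54. The day 7 value was -0.95 against sham samples 3 and 4 alone and -0.98 with normexp correction, neither of which was called. The difference from day 1 lost its call without day 7 sample 2, at 1.17, and under 75th percentile scaling, at 0.59.

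TRPV5 encodes an epithelial calcium entry channel of the kidney. Log2 signals were 7.08, 7.26, 7.32 and 6.95 in the sham samples, 10.98 and 10.49 on day 1, and 7.78 and 7.88 on day 7. The day 1 samples stood far above the other groups. It was higher on day 1 by 3.58 ± 0.17 (12.0-fold, adjusted p = 1.99e-06) and lower on day 7 than on day 1 by -2.90 ± 0.20 (adjusted p = 2.32e-05). Of its 3 probes, only this one was called on day 1, and the lowest of the others gave 0.14. TRPC5 and TRPV1 were called in no comparison.

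**Figure D2:**
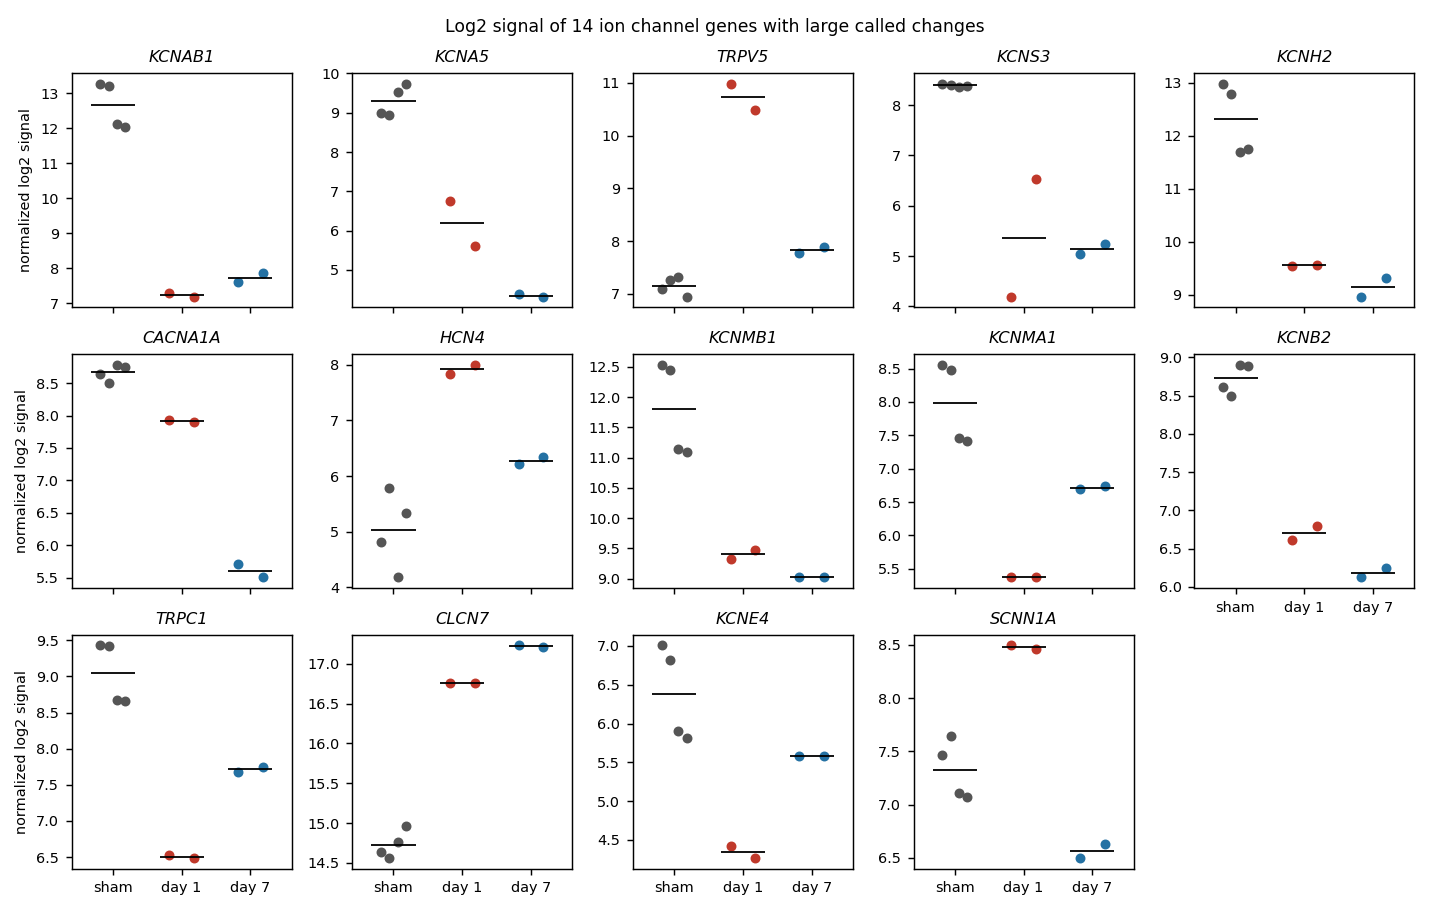
Quantile-normalized log2 signal (vertical axes, with a separate range in each panel) of 14 ion channel genes with large called changes, in 4 sham surgery samples, 2 day 1 samples and 2 day 7 samples; each point is a sample and each line a group mean. The sham points of KCNAB1, KCNH2, KCNMB1, KCNMA1, TRPC1 and KCNE4 fall into an upper pair, samples 1 and 2, and a lower pair, samples 3 and 4.

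In 10 of the 15 members that were lower than sham at either time, sham samples 1 and 2 were above samples 3 and 4 by at least 0.5 log2 units, and in 1 they were below by as much. The difference was 1.38 for KCNMB1, 1.16 for KCNAB1, 1.16 for KCNH2, 1.08 for KCNMA1, 1.05 for KCNE4 and 0.76 for TRPC1. KCNA5 went the other way, at -0.66, and KCNS3 hardly differed, at 0.05. Among all genes, 29.3% differed between the pairs by at least 0.5 in either direction, beside 34% of the 47 members. The smooth muscle markers DES, MYH11 and ACTA2 were also above in samples 1 and 2, by 2.37, 1.03 and 0.57. Against samples 1 and 2 alone, 28 members were called on day 1 and 19 on day 7, and against samples 3 and 4 alone, 25 and 14.

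Markers of several cell types moved with the groups. Of 4 smooth muscle markers measured, 2 were lower on day 1 and 3 on day 7, none was higher, and their summed level (log2) was 18.9 to 19.6 in sham, 17.5 on day 1 and 18.0 to 18.2 on day 7. MYH11, the smooth muscle myosin, was lower by -5.33 on day 1 and by -6.49 on day 7, and ACTA2, the smooth muscle actin, by -5.14 on day 1, with -0.49 on day 7. All 3 nerve and glia markers (among them S100B and PMP22) and both endothelial markers (NOS3 and KDR) were lower at both times, with summed levels of 14.2 to 14.5 and 8.84 to 9.11 in sham, 10.9 and 7.59 to 7.62 on day 1, and 12.0 to 12.2 and 5.96 to 6.03 on day 7. All 4 macrophage and neutrophil markers were higher at both times, with a sum of 11.8 to 13.3 in sham, 19.0 to 19.1 on day 1 and 19.8 on day 7. All 3 skeletal muscle markers were higher on day 1, and on day 7, 1 was higher and 1 lower, with a sum of 6.95 to 8.74 in sham, 11.4 to 11.5 on day 1 and 7.58 to 8.19 on day 7. Of 3 fibroblast markers, 3 were lower on day 1 and 1 on day 7 (sum 19.9 to 20.0 in sham, 17.1 on day 1 and 19.6 to 19.7 on day 7). Of 2 lymphocyte markers, CD4 was called higher than sham on day 1 only and CD3E on day 7 only (sum 5.83 to 6.04, 7.81 to 7.97 and 6.98 to 7.05). Of 3 adipocyte markers, 1 was lower at each time (10.5 to 16.9, 11.1 and 9.14 to 9.18). The cardiac muscle marker was higher on day 1 (7.89 to 8.07, 9.18 to 9.55 and 7.13 to 7.24), and the erythrocyte marker was called at neither time. KDR was not well above background on any graft array, CKM on any day 7 array and ADIPOQ on any day 1 array. The part of these markers in the changes of the ion channel genes was not tested.

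The probes of most members that were higher on day 1 were dim. All genes were divided into 5 equal parts by mean signal, which ranks probe brightness and not expression. The 24 members in the lower 2 parts held 10 of the 13 genes that were higher on day 1 and 1 of the 13 that were lower. The 15 members in the third part held 2 and 6, the 7 in the fourth part 0 and 6, and the 1 in the brightest part 1 and 0. Among all genes, the median log2 fold change on day 1 was 0.31, 0.46, 0.47, 0.10 and 0.04 from the dimmest to the brightest part. On day 7 against day 1 it was -0.31, -0.41, -0.27, 0.04 and 0.06. From the dimmest to the brightest part, 27.5%, 31%, 37.9%, 29.9% and 18% of all genes were higher on day 1. The shares that were lower were 17.8%, 19.7%, 26.6%, 26% and 19.9%. The part of brightness in the day 1 changes was not tested.

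For 24 members more than 1 probe passed the filter, and the probes of a gene can bind different transcripts. The choice of probe mattered for the shift of the whole group on day 1. With the mean of all probes of a gene, the median of the 47 genes was 0.21, beside 0.22 for all genes, and 24 genes were called. On day 7 it was -0.26 with either choice. The calls of CACNA1E (0.85) and CACNB3 (-0.82) on day 1 were lost with the mean of the probes.

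**Figure D3:**
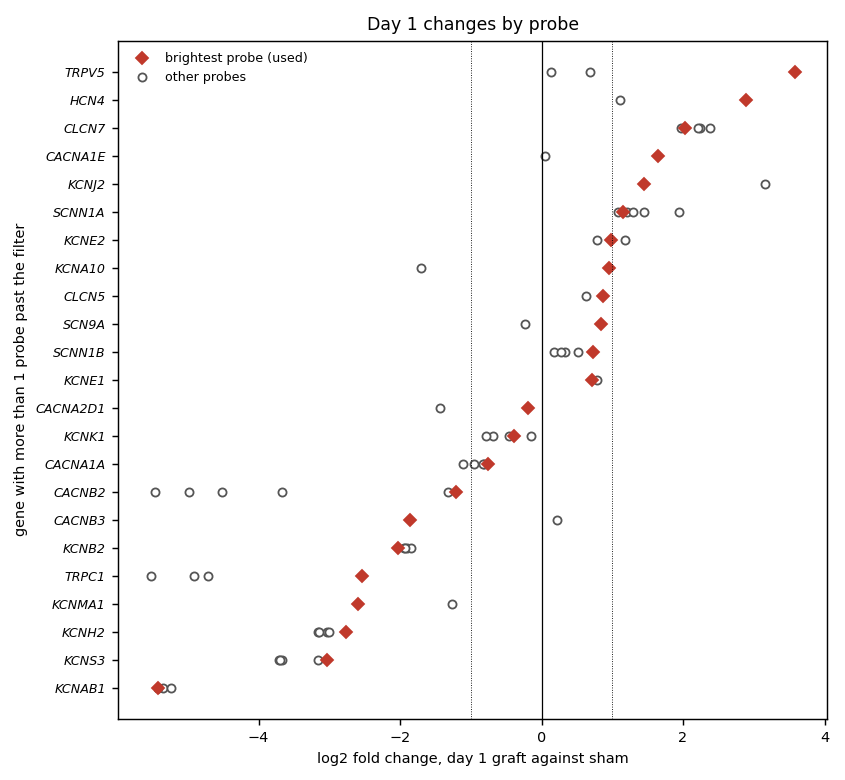
Log2 fold change on day 1 against sham (horizontal axis) of every probe past the filter, for 23 of the 24 ion channel genes (rows) with more than 1 such probe; diamonds are the brightest probe, which was used, and circles are the other probes. The probes of KCNAB1, KCNH2, KCNB2 and CLCN7 lie close together, while those of TRPV5, CACNB2, TRPC1 and KCNA10 are spread widely; 2 probes of CACNB2 and 1 of TRPC1 were not well above background on any day 1 array, and 1 of KCNJ2 was not on any sham array.

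By their calls in the 3 comparisons, each taken from the brightest probe, the members fell into 14 patterns, 7 of which held 1 gene each. The largest, with 14 members, was called in no comparison: CLCN5, KCNJ10, KCNE1, SCN9A, SCNN1B, TRPC5, TRPV1, KCNK10, CACNA2D1, KCNA10, KCNA4, KCNC1, KCND2 and KCND3. In 9 members the signal was higher on day 1 and lower on day 7 than on day 1, with no call on day 7 against sham, among them KCNJ11, KCNJ2, SCNN1A, SCNN1G, TRPV5, CACNA1B, CACNA1E and KCNA3. In 7 members it was lower at both times, with no call between the times: KCNAB1, KCNMB1, CACNB2, CACNB3, KCNB2, KCNH2 and KCNS3. KCNMA1 and TRPC1 were lower at both times and higher on day 7 than on day 1, whereas KCNA5 was lower at both times and lower on day 7 than on day 1. CLCN7, KCNA1 and HCN4 were called higher at both times. KCNA1 passed the filter only through day 7 and SCNN1G only through day 1, so that their patterns follow in part from the filter. The day 7 call of HCN4 against sham was lost under 12 of 22 alternatives. The comparisons with sham share the sham samples, and the comparisons with day 1 share the day 1 samples.

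Within the 3 scans that held both graft groups, the difference of day 7 from day 1 could be taken scan by scan. For KCNA5 it ran from -1.84 to -1.83, for TRPV5 from -2.93 to -2.86, for CACNA1A from -2.32 to -2.30, and for KCNK1 from 1.70 to 1.79. It kept its sign in all 3 scans for each of these genes. Arrays of the 3 scans were averaged into the same samples, so that these ranges measure technical spread. Day 1 and day 7 arrays held different positions in every scan, so that position was not balanced by these comparisons.

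Of 75 other genes for ion channels and calcium entry that were listed, 18 had a named probe and 16 passed the filter. These 16 include KCNJ8, CACNB1 and CACNA1C. On day 1, 1 was up-regulated and 12 were down-regulated, beside 28.9% and 22% of all genes. On day 7 against sham the counts were 1 and 8, beside 17.6% and 13.6% of all genes. On day 7 against day 1, 6 were up-regulated and 3 were down-regulated, beside 19.3% and 22.3% of all genes. RYR3 and RYR2, which release calcium from stores, were lower on day 1 by -3.33 ± 0.33 (adjusted p = 6.72e-05) and -3.63 ± 0.69 (adjusted p = 0.0022), and on day 7 by -5.09 ± 0.33 (adjusted p = 1.64e-05) and -4.03 ± 0.69 (adjusted p = 0.00202). GJC1 (connexin 45) was lower on day 1 by -4.76 ± 0.13 (adjusted p = 2.28e-07) and on day 7 by -2.005 ± 0.13 (adjusted p = 1.45e-05). GJA1 (connexin 43) was lower on day 1 by -1.81 ± 0.16 (adjusted p = 3.87e-05) and higher on day 7 by 2.35 ± 0.16 (adjusted p = 2.12e-05). CNGA2, a cyclic nucleotide-gated pore, was well above background on 4 sham arrays, 3 day 1 arrays and 0 day 7 arrays. It passed the filter only through sham, so that its difference follows in part from the filter and is given as a description. On day 7 CNGA2 was at least 20.9-fold lower than in sham. Of the 3 channel genes left out of the members, KCNJ8 (Kir6.1) was lower by -3.89 and -5.12, CACNB1 by -1.34 and -1.05, and CACNA1C (the L-type pore) by -3.88 and -1.81 on day 1 and day 7, all of which were called. CACNA1C was not well above background on any day 1 array, where it was at least 7.13-fold lower than in sham.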

How the data were processed

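Each array's deposited file held background-subtracted signal intensity, from Agilent Feature Extraction (9.1 in the submitters' processing notes, 11.0.1.1 in the file header). The authors also deposited log2 values, which GeneSpring had quantile-normalized and which cover 33670 probes; these served as an alternative. Of 45220 spots, 43603 probes remained without controls. Spots marked non-uniform or outlying were set to missing (1.46% on at least 1 array). Log2 intensities were quantile-normalized, and spots of a probe were averaged. Probes were named through RefSeq accessions (3368 probes, 1264 genes, names of mOryCun1.1); the files' annotation names oryCun2, and no coordinates or sequences are given. The brightest probe represented a gene.

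Arrays of a group were averaged into 1 sample where the variance of their difference was at most that between spots of a probe, over 36 replicated probes and complete linkage. This rule was set after the ratios were seen and before calls were compared. The 3 groups shared 1 model in limma 3.58.1 (lmFit, eBayes; R 4.3.3, data.table version 1.17.8; figures with Python 3.11.15, matplotlib 3.10.9 and pandas 2.3.3), which was tested on simulated data. All p-values are two-sided, and intervals are 95% intervals. "At least" folds use the lowest signal well above background on each array. Members and gene lists were chosen with earlier results of these data known. Genes named singly are the called members, by their largest change up to 30; KCNAB2, KCNK18 and CLCN2 lie outside this rule and were named after their values were seen, as were probes that disagreed. Of the 16 with the largest changes, 14 have their sample values printed. Some genes are not reported here, although the counts include them. Of the other channel genes, up to 6 called ones were named.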

Additional observations from a re-analysis of the deposited data

Results flagged for a closer look

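No sham sample stood apart in any of the 47 ion channel genes by Dixon's criterion for 4 samples, and groups of 2 samples were not examined. In 17 genes the change from sham differed between day 1 and day 7, as tested by day 7 against day 1 in limma, with at least 1 of the changes from sham called. The difference was below 0 in 13 of them, among them -2.90 in TRPV5, -2.31 in CACNA1A, -1.92 in SCNN1A, -1.83 in KCNA5, -1.78 in CACNA1E, -1.66 in KCNA3, -1.64 in HCN4, -1.60 in SCNN1G (not well above background on any day 7 array), -1.52 in CACNA1B, -1.22 in KCNJ2 and -1.03 in KCNJ11. It was above 0 in 4 of them: 1.75 in KCNK1, 1.34 in KCNMA1, 1.24 in KCNE4 and 1.21 in TRPC1. In 0 of the 17 genes were opposite changes called at the 2 times. With normexp background correction the difference was called in CACNA1A, SCNN1A and TRPV5 of these genes.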

How the results depend on the processing

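Of the 64 called changes of the 33 members called in at least 1 comparison, 24 kept their call and direction under every alternative run and 40 lost the call under at least 1. No called change reversed its sign; 23 values of 12 genes did, all without a call in either setting. The number of ion channel genes called was 26 on day 1, 17 on day 7 and 21 on day 7 against day 1. It was 13, 10 and 3 with normexp background correction. Leaving out 1 sample at a time, it ran from 25 to 28 on day 1, from 14 to 17 on day 7, and from 16 to 21 on day 7 against day 1. Same-numbered arrays did not deviate together (correlations of -0.016 to 0.053). Because graft samples of a group differed by little more than the spread between spots, this cannot decide whether the numbers pair animals. With the replicate number as a block over 16 arrays, 28, 17 and 21 genes were called. Further alternatives were chosen after seeing the data: each graft group as 1 sample (24, 14 and 16 genes), sham samples 1 and 2 alone (28, 19 and 21) and sham samples 3 and 4 alone (25, 14 and 21). Under 75th percentile scaling 70.1%, 49.0% and 25.8% of the calls over all genes were up-regulated, beside 56.8%, 56.4% and 46.4% with quantile normalization. The cause of these dependencies was not tested. Where 1 sample is left of a group, it is assumed to vary like the others. Probes near background limit 4 members that were bright in 1 group only.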
